A study of Mus musculus with 6 samples.

Results

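The genes described here encode 7 proteins of the RAS to ERK kinase cascade: the GTPases Hras and Nras, the RAF kinases Araf and Braf, the MEK kinases Map2k1 and Map2k2, and the ERK kinase Mapk3. They were chosen by name, and their probes were found by matching each probe's transcript accession to a RefSeq gene table (GRCm38.p6). This gave 15 probes of the 55681 on the array that are not controls. All 7 genes were among the 25422 genes and transcribed intervals tested, and 14 of the 15 probes were measured well above background. Paralogues of these genes that are not named were not analysed here.

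RAS proteins are membrane switches that are active when bound to GTP. Active RAS recruits RAF kinases, RAF phosphorylates MEK, and MEK phosphorylates ERK, which then enters the nucleus and drives transcription of its target genes. In mouse embryonic stem cells, FGF4 made by the cells themselves feeds this cascade and primes them for differentiation, whereas blocking it favours self-renewal. The cascade is regulated mainly by binding and phosphorylation of its proteins, which an RNA array does not measure.

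The cells were of the embryonic stem cell line J1, from the inner cell mass of a mouse of strain 129S4/SvJae. Both groups grew without a feeder layer on gelatin, in 15% serum replacement with 1000 U/mL LIF, a cytokine that sustains self-renewal. One group received 1 µM SC1 for 6 h and the other the solvent DMSO for 6 h, with 3 samples per group and 1 single-colour array per sample. SC1, or pluripotin, is a small molecule that has been reported to act on ERK1, the product of Mapk3, and on RasGAP, the protein that returns RAS to its inactive state. J1 is a single line. Whether replicates of a group were grown as separate cultures is not stated in the labels, and the p-values below therefore cover only the variation among these 6 samples, part of which may be technical.

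All 8 markers of embryonic stem cells were well above background on every array, among them Pou5f1 and Nanog. Their summed signal was 562 to 586 times the array's 75th percentile in DMSO and 572 to 604 times in SC1. Of the 8, Sall4 rose, by 0.25, and Tdgf1, Sox2 and Zfp42 fell, by 1.39, 0.28 and 0.25. Of 6 fibroblast markers, 5 were detected on every array and Postn on none, with sums of 2.19 to 2.34 in DMSO and 1.67 to 1.79 in SC1. Of the 5 tested, Col1a1, Col3a1 and Dcn rose, by 0.81, 0.50 and 1.18. Thy1, which had the highest signal of them in DMSO, fell by 1.09, so the lower sum does not describe the fibroblast markers as a set. All 4 primitive endoderm markers were detected (0.628 to 0.689 and 0.665 to 0.732), and Foxa2 and Gata4 rose, by 0.66 and 0.18. Gata6 and Sox17 stood lower in SC1, at -0.21 and -0.050, and did not pass. Of 3 trophoblast markers, Elf5 and Hand1 were on no array above background, and Cdx2 was detected in DMSO but on no SC1 array. The part of other cells in the results below was not tested, and fewer cells of a type cannot be told apart from less RNA per cell. All arrays were on 1 slide: the DMSO arrays and SC1 replicate 1 lay in column 1, and SC1 replicates 2 and 3 in column 2. The 75th percentile of the signal, to which each array was scaled, was 532 to 539 on the DMSO arrays, 493 on SC1 replicate 1, and 443 to 458 on the other SC1 arrays.

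Messenger RNAs of the cascade changed little after 6 h of SC1. Braf and Mapk3 fell, by 0.30 and 0.14 on the log2 scale, and the other 5 genes did not pass the test, with log2 fold changes from -0.092 for Nras to 0.085 for Araf. With limma and Benjamini-Hochberg adjustment over all genes, 2 of the 7 genes were thus called at an adjusted p under 0.05, both lower, against 38.4% of all genes tested (18.1% higher and 20.2% lower). SC1 and DMSO values were fully separated for 4 of the 7 genes, against 52.2% of all genes. With 7 genes, neither count is read as a result about them. The median absolute log2 fold change was 0.085 over the 7 genes and 0.17 over all genes tested, which were not matched to them for signal or noise. The SD within groups was above that of only 2.4% of genes for Map2k2, but of 66.2% for Braf. In this fit no gene's 95% interval reached a 1.5-fold change, a log2 of 0.58. The farthest bound was -0.51, for Braf. With spike-in scaling the SE of Braf was 0.159, against 0.0831 here, so this limit does not carry over to that scaling.

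**Figure D1:**
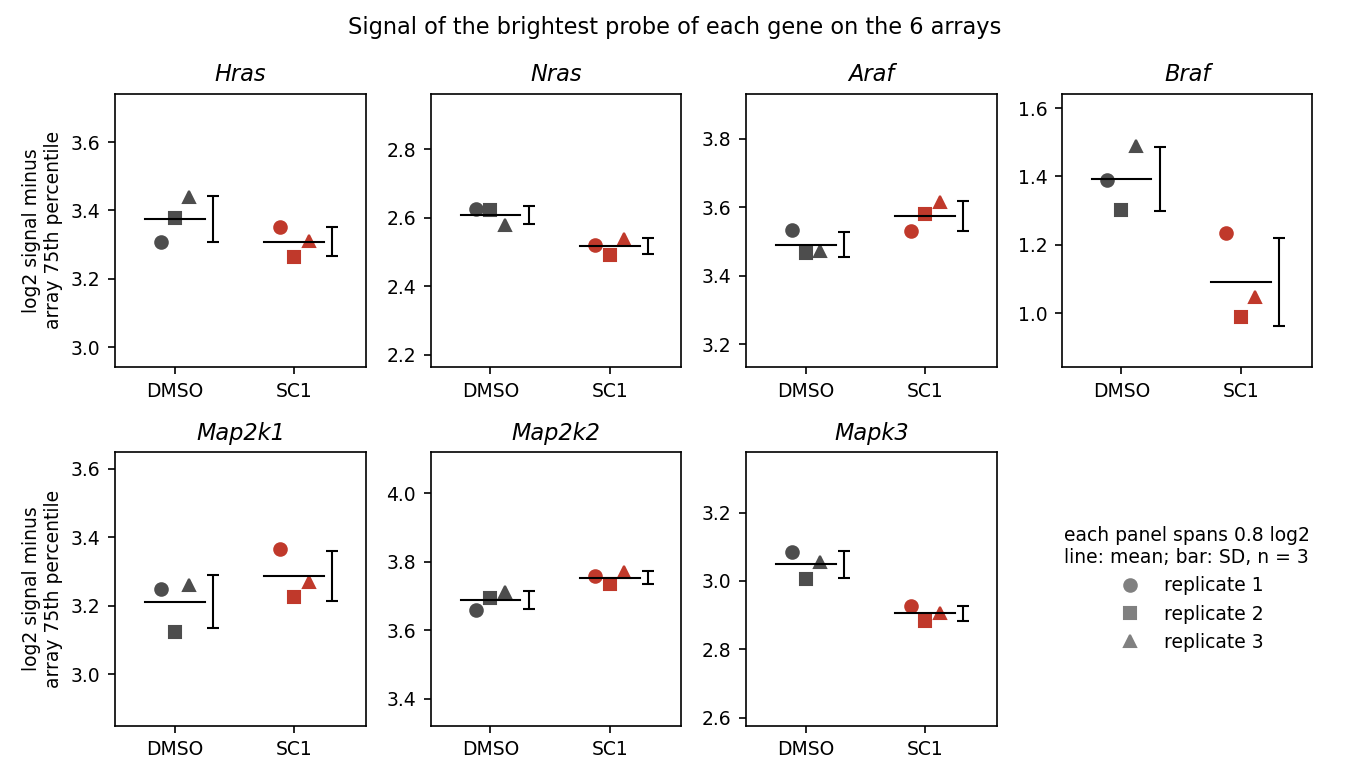
Log2 signal minus the array's 75th percentile (vertical axis) for the brightest probe of each gene on the 3 DMSO (grey) and 3 SC1 (red) arrays; each panel spans the same width, lines are means and bars SD. The groups do not overlap for Nras, Braf, Map2k2 and Mapk3, and the largest difference is that of Braf.

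Hras and Nras encode small GTPases at the head of the cascade, which receive the signal from receptors through exchange factors. On the log2 scale relative to the array's 75th percentile, Hras read 3.31, 3.38 and 3.44 in DMSO and 3.35, 3.26 and 3.31 in SC1. The groups overlapped, and the log2 fold change of -0.066 (SE 0.0514, 95% interval -0.19 to 0.060, n = 3 per group, adjusted p = 0.365) did not pass. A second Hras probe, designed on the transcript NM_001130444, was not well above background on any of the 6 arrays, with processed signals from 2.53 to 10.8, so no fold is given for it.

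Nras read 2.63, 2.62 and 2.58 in DMSO and 2.52, 2.49 and 2.54 in SC1 on its brightest probe. Every SC1 array lay below every DMSO array, but the log2 fold change of -0.092 (SE 0.039, 95% interval -0.19 to 0.0034) had an adjusted p of 0.116. Its 3 probes, all on the transcript NM_010937, did not give the same call. When every probe was tested by itself, the second probe fell by 0.20 (SE 0.0431, adjusted p = 0.0163), from 2.24, 2.29 and 2.30 in DMSO to 2.09, 2.05 and 2.11 in SC1. The remaining probe gave -0.030 (SE 0.0528, adjusted p = 0.702), and its groups overlapped. The direction was thus downward on all 3 probes, and the size ran from near 0 to 0.20.

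Araf and Braf encode RAF kinases, which bind active RAS and phosphorylate MEK. The start regions of this pair are printed because Braf had the largest change of the 7 genes and Araf was the only RAF or RAS gene whose brightest probe was higher with SC1; that of Nras is added for its E-box. Each is the 250 bases before the start of the gene on its own strand, from RefSeq on GRCm38.p6, with matches to the motifs named below in capitals. Braf lies on the minus strand (chr6:39725464-39725713), Araf on the plus strand (chrX:20848293-20848542) and Nras on the plus strand (chr3:103058035-103058284).
Braf: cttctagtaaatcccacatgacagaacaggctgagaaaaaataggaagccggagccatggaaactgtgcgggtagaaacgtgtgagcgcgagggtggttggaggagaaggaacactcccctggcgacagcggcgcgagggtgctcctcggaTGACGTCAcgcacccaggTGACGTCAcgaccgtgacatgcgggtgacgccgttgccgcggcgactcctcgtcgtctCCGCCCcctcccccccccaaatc
Araf: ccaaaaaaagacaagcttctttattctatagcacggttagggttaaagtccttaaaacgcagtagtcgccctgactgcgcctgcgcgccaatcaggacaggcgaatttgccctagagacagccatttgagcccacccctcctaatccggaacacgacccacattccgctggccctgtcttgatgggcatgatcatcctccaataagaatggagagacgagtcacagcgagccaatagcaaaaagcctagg
Nras: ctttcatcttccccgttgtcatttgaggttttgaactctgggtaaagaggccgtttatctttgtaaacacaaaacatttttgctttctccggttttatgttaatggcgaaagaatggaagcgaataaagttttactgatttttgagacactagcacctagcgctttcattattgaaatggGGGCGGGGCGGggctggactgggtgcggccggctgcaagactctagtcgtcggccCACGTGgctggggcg

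A cAMP response element (TGACGTCA) was found at 2 places upstream of Braf, and 1.55% of 32851 start regions of this length held it at least once. The GC box (GGGCGG), held by 32.7% of regions, matched 1 time upstream of Braf, 2 times upstream of Nras and at no place upstream of Araf. The E-box CACGTG, the sequence to which MYC binds, matched 1 time upstream of Nras and in 6.02% of regions. The AP-1 motif (TGAGTCA, in 4.46% of regions), an ETS motif (CCGGAAG, 6.91%) and an EGR1 motif (GCGTGGGCG, 0.536%) matched none of the 6 members for which a region was given. Those are Hras with 3 GC boxes, Map2k1 with 4 and Map2k2 with 1, besides the genes printed. The G and C content was 62.0% for Braf, 51.2% for Araf and 48.4% for Nras, against a median of 52.4% over all regions. Both strands were searched for every motif, and the GC boxes of Nras overlap. A match describes the letters only.

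Braf read 1.39, 1.30 and 1.49 in DMSO and 1.24, 0.99 and 1.05 in SC1. All SC1 arrays lay below all DMSO arrays, with SC1 replicate 1 nearest to them. The log2 fold change of -0.30 (SE 0.0831, 95% interval -0.51 to -0.099, adjusted p = 0.0324) corresponds to a 1.23-fold decrease. Before scaling, its processed signals were 1411, 1313 and 1500 in DMSO and 1162, 910 and 916 in SC1. A dimmer probe on the same transcript, NM_139294, gave -0.17 (SE 0.0812, adjusted p = 0.15) with overlapping groups. Within column 1 of the slide, where SC1 replicate 1 alone stood against the 3 DMSO arrays, the log2 fold change was -0.16 (adjusted p = 0.284), nearer to 0 than with all arrays. Without SC1 replicate 1 it was -0.37 (adjusted p = 0.0172). The call was lost when DMSO replicate 1 or 3 or SC1 replicate 2 or 3 was left out (adjusted p from 0.0809 to 0.0941).

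Araf read 3.53, 3.47 and 3.47 in DMSO and 3.53, 3.58 and 3.62 in SC1 on its brightest probe, designed on the transcript NM_009703. SC1 replicate 1 fell inside the DMSO range, and the log2 fold change of 0.085 (SE 0.0444, 95% interval -0.024 to 0.19, adjusted p = 0.189) did not pass. A second probe, on the transcript NM_001159645, went the other way. It read 2.09, 2.06 and 2.00 in DMSO and 1.92, 1.81 and 1.89 in SC1, without overlap, and fell by 0.18 (SE 0.0508, adjusted p = 0.0394, every probe tested). A dim further probe on that same transcript gave -0.0099 (SE 0.0932, adjusted p = 0.948). With the mean of the 3 probes Araf had a log2 fold change of -0.034 (adjusted p = 0.629), so no direction can be given for the gene as a whole.

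The difference between the first and second Araf probes was 1.44, 1.41 and 1.47 in DMSO and 1.61, 1.77 and 1.72 in SC1, a shift of 0.26 (SE 0.0516). All SC1 arrays lay above all DMSO arrays. An exact two-sided permutation test gave p = 0.1, the smallest that 3 against 3 allows, and 0.3 after adjustment over the 9 pairs of probes of 1 gene, a family chosen after the values were seen. The groups did not overlap for 3 of these 9 pairs, the other 2 being the second Nras probe against each of its fellows. A difference between probes does not depend on the scaling factor of an array.

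The log2 ratio of Araf to Braf, on their brightest probes, was 2.14, 2.16 and 1.98 in DMSO and 2.29, 2.59 and 2.57 in SC1. It was higher on every SC1 array, by 0.39 (SE 0.111), and the shift was positive under all 16 alternatives that give a ratio (0.20 to 0.48). Scaling by the median of detected probes, by spike-in RNAs or by the percentile over spots could not move it, since a factor of an array cancels. The other filters also left it at 0.39. The exact two-sided permutation p was 0.1, and 0.3 adjusted over the 3 pairs of paralogues compared. The lower value, 0.20, came with the mean of each gene's probes, in which the Araf probe that fell is counted. The rest of the 16 used the brightest probe of each gene, and no ratio was taken between other probes. The second Araf probe and the dimmer Braf probe fell by similar amounts, at -0.18 and -0.17. A slide column block was not among the 16. SC1 replicate 1, the only SC1 array in column 1, had the lowest SC1 ratio, 2.29. For Hras against Nras the shift was 0.026 (SE 0.0554, exact p = 0.7) and for Map2k1 against Map2k2 it was 0.0093 (SE 0.062, exact p = 0.9), with overlapping groups in both. The sign of these 2 shifts turned under other processing, so neither pair can be ordered by response. Araf and Braf cannot be ordered as genes either, since the Araf probes differed in sign and the adjusted permutation p was 0.3.

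**Figure D2:**
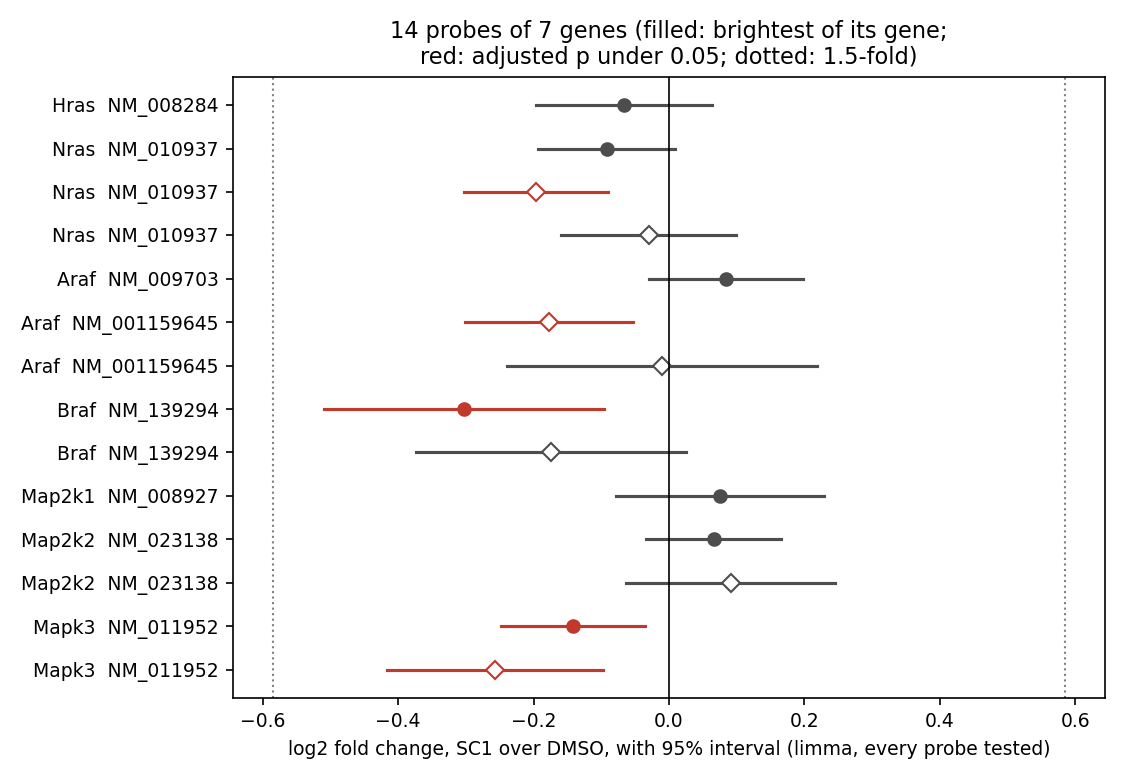
Log2 fold change of SC1 over DMSO (horizontal axis) with its 95% interval for each of the 14 probes that passed the filter, labelled by gene and transcript; filled points are the brightest probe of a gene, and red marks an adjusted p under 0.05. Of the 14, 5 were called lower and none higher, and the Araf probes lie on both sides of 0.

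Map2k1 and Map2k2 encode MEK1 and MEK2, which phosphorylate ERK on both residues of its activation loop. Map2k1, with a single probe, read 3.25, 3.12 and 3.26 in DMSO and 3.37, 3.23 and 3.27 in SC1. The groups overlapped, and the log2 fold change was 0.075 (SE 0.0609, 95% interval -0.074 to 0.22, adjusted p = 0.385). Map2k2 read 3.66, 3.70 and 3.71 in DMSO and 3.76, 3.73 and 3.77 in SC1. All SC1 arrays lay above all DMSO arrays, but by little: the log2 fold change was 0.066 (SE 0.0386, 95% interval -0.029 to 0.16, adjusted p = 0.236). A second Map2k2 probe gave 0.091 (SE 0.0629, adjusted p = 0.312) with overlapping groups. With quantile normalization Map2k2 passed at 0.15 (adjusted p = 0.0225), and so did Araf at 0.15 (adjusted p = 0.0365).

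Mapk3 encodes ERK1, the kinase on which SC1 is reported to act. It read 3.08, 3.01 and 3.05 in DMSO and 2.93, 2.88 and 2.91 in SC1 on its brightest probe, and all SC1 arrays lay below all DMSO arrays. The log2 fold change was -0.14 (SE 0.0413, 95% interval -0.24 to -0.041, adjusted p = 0.0388), a 1.10-fold decrease. The second probe on the same transcript, NM_011952, read 1.67, 1.47 and 1.54 in DMSO and 1.27, 1.36 and 1.28 in SC1, again without overlap. It fell by 0.26 (SE 0.0649, adjusted p = 0.0261, every probe tested). The difference between the 2 probes shifted by 0.11 (SE 0.0539, exact permutation p = 0.2), with overlapping groups. The Mapk3 value was below 0 under all 20 alternatives at gene level, but passed in only 5 of them. It did not pass with any 1 array left out (adjusted p from 0.0555 to 0.106), with quantile normalization (-0.069, adjusted p = 0.211) or with normexp background correction and quantile normalization (-0.048, adjusted p = 0.44). With the replicate number as a block its adjusted p was 0.0836.

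Over all member probes tested one by one, 5 of 14 were called, all lower, against 36.3% of all probes (16.8% higher, 19.5% lower). Groups did not overlap for 7 of the 14, against 51.1% of all probes. Of the 14 probes 10 had a lower mean with SC1 and 4 a higher one, namely both Map2k2 probes, the Map2k1 probe and the brightest Araf probe.

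The scaling of the arrays mattered for effects of this size. On the brightest probe, processed signals of all 7 genes were lower on SC1 replicates 2 and 3 than on any DMSO array before scaling. Map2k2, for example, read 6802, 6893 and 6989 in DMSO and 6669, 6101 and 6045 in SC1, and the scaling turned that order. Relative to spike-in RNAs none of the 7 genes passed, with log2 fold changes of -0.34 for Braf (adjusted p = 0.138) and -0.18 for Mapk3 (adjusted p = 0.502).

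**Figure D3:**
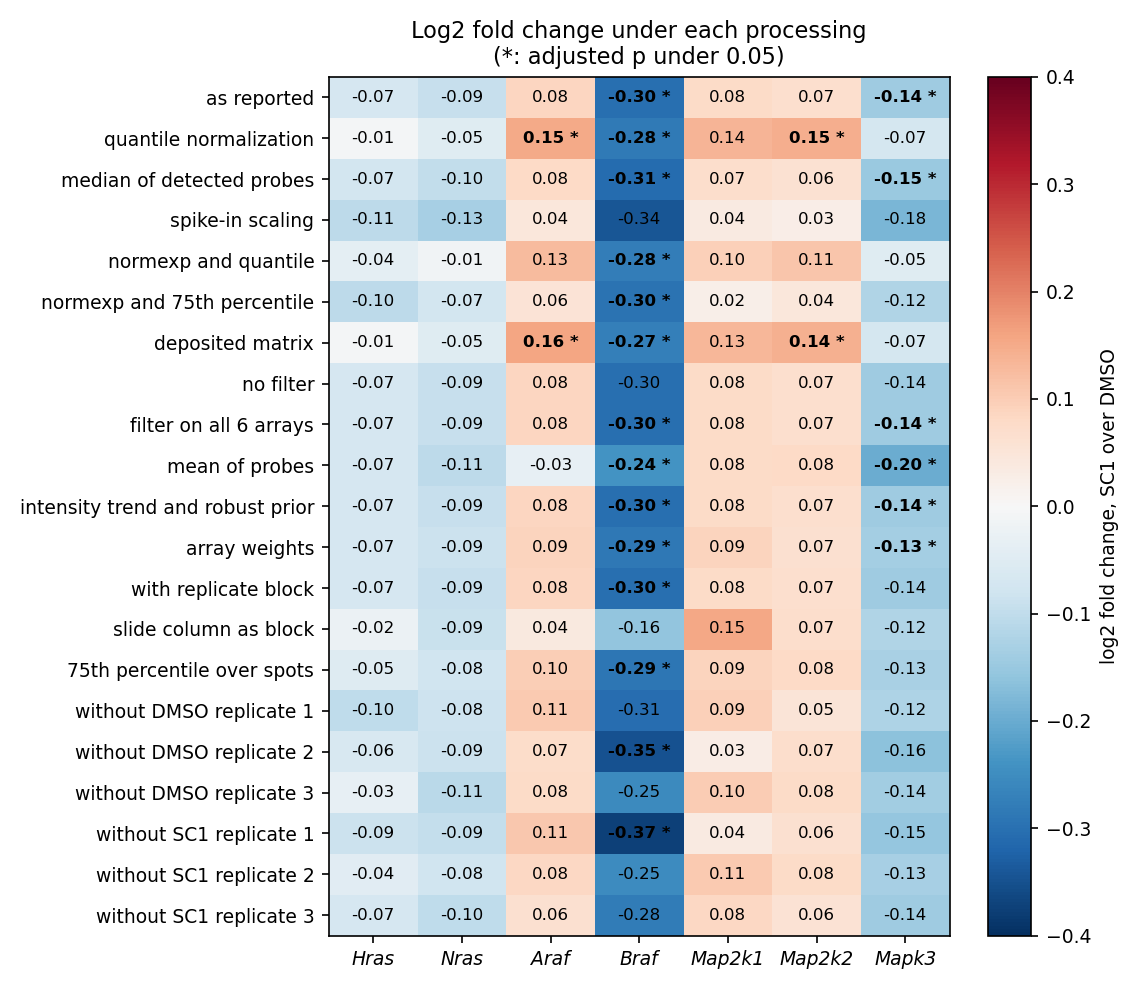
Log2 fold change of SC1 over DMSO for each gene (columns) as reported and under 20 alternatives (rows), with the value written in each cell, coloured blue below 0 and red above, and a star at an adjusted p under 0.05. Braf is negative throughout and passes in 13 alternatives, Mapk3 is negative throughout and passes in 5, and Araf and Map2k2 pass as higher in 2.

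Lists of other genes of the pathway are given to place the cascade. The earlier results of these data were known when the lists were set. Of 10 genes upstream of RAS (ligand, receptors, adaptors and exchange factors), 5 rose, 3 fell and 2 did not pass, with a median log2 fold change of 0.17. Beside this and the list counts that follow stands the background of all genes tested, of which 38.4% were called (18.1% higher and 20.2% lower); the shares for the RasGAP, GTPase, scaffold and lipid lists lie near it. Fgf4, the ligand that feeds ERK in these cells, rose by 0.89 (SE 0.0443), and the receptor genes Fgfr2 and Fgfr1 rose by 0.80 (SE 0.0546) and 0.42 (SE 0.0449). The value of Fgfr2 ran from 0.52 to 1.41 over its alternatives. With spike-in scaling 2 of the 10 passed, both higher. No lower call was left there, without SC1 replicate 1, or with the replicate number or the slide column as a block; under the last 3 settings, 4 genes passed as higher. Without DMSO replicate 1, 2 or 3, 4 passed as higher and 1 as lower.

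RasGAP proteins stimulate RAS to hydrolyse GTP. Of 6 RasGAP genes tested, Rasa2 and Rasa3 fell by 0.44 (SE 0.0605) and 0.36 (SE 0.0451), none rose and 4 did not pass, with a median of -0.070. Rasa1, the gene of p120 RasGAP, stood at -0.11 (SE 0.045, adjusted p = 0.107), and was not called under any of its 20 alternatives.

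Of 9 other GTPase genes of the RAS family, 2 rose, 2 fell and 5 did not pass (median -0.028). Rras and Rras2, close relatives of the RAS genes, fell by 0.24 (SE 0.041) and 0.35 (SE 0.0494), while Rit1 rose by 0.37 (SE 0.0576). With spike-in scaling none of the 9 passed.

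RAS reaches the membrane only after a lipid is attached to it. Of 7 genes for this modification, 2 rose, 1 fell and 4 did not pass (median -0.0091). Those that rose were Fnta and Fntb, the subunits of farnesyltransferase, by 0.36 (SE 0.0369) and 0.47 (SE 0.0622). Golga7, which with Zdhhc9 palmitoylates RAS, fell by 0.19 (SE 0.0411), a call lost in 6 of 20 alternatives, among them quantile normalization (adjusted p = 0.0514).

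Of 14 scaffolds and regulators of the cascade, 1 rose, 3 fell and 10 did not pass (median -0.044). Leaving out any 1 array except SC1 replicate 2 left 1 higher and 1 lower. Iqgap1, a scaffold that binds RAF, MEK and ERK, rose by 0.38 (SE 0.0524). Pea15a, whose product holds ERK in the cytoplasm, fell by 0.33 (SE 0.0599). Lamtor2 had the largest change of the list, a fall of 0.70 (SE 0.212, adjusted p = 0.0454), and was named after its value was seen. Its SC1 arrays were spread, at 3.80, 4.62 and 4.02, against 4.94, 4.88 and 4.71 in DMSO. Ywhab, a 14-3-3 gene whose product binds phosphorylated RAF, fell by 0.14 (SE 0.0436, adjusted p = 0.0433), a call lost in 14 of 20 alternatives and with any 1 array left out.

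Of 16 genes of other MAP kinase cascades, 2 rose, 6 fell and 8 did not pass (median -0.063), against 38.4% of all genes called. Map2k6, a kinase that activates p38, rose by 1.02 (SE 0.0873). Mapk12, a p38 family kinase, fell by 0.82 (SE 0.0421), and Mapk7, which encodes ERK5, by 0.46 (SE 0.0452). These 3 calls were kept in all 20 alternatives. With the slide column as a block 3 of the 16 passed.

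Targets and feedback inhibitors of ERK changed on another scale. Of 17 tested, 16 fell, none rose and 1 did not pass, with a median of -1.52, against 20.2% of all genes called lower. With only probes well above background on all 6 arrays, which leaves out Spry4, 15 of 16 fell. Under 6 of the 20 alternatives, among them leaving out DMSO replicate 1, 1 gene passed as higher. The median ran from -1.83 without DMSO replicate 1 to -1.01 with normexp and quantile normalization. Etv1 and Egr1, transcription factor genes induced by ERK, fell by 3.33 (SE 0.0415) and 3.53 (SE 0.0455). Spry4, a feedback inhibitor, was well above background on all DMSO arrays and on no SC1 array. Setting the SC1 arrays at the lowest signal called well above background, its level was at least 24.97-fold lower. It passed the filter only through the DMSO arrays, so its fitted p is not given. The gene that did not pass was Junb, at 0.26 (SE 0.0834, adjusted p = 0.0502), named after its value was seen. The list is not independent evidence of its direction, since these falls were known when it was set.

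**Figure D4:**
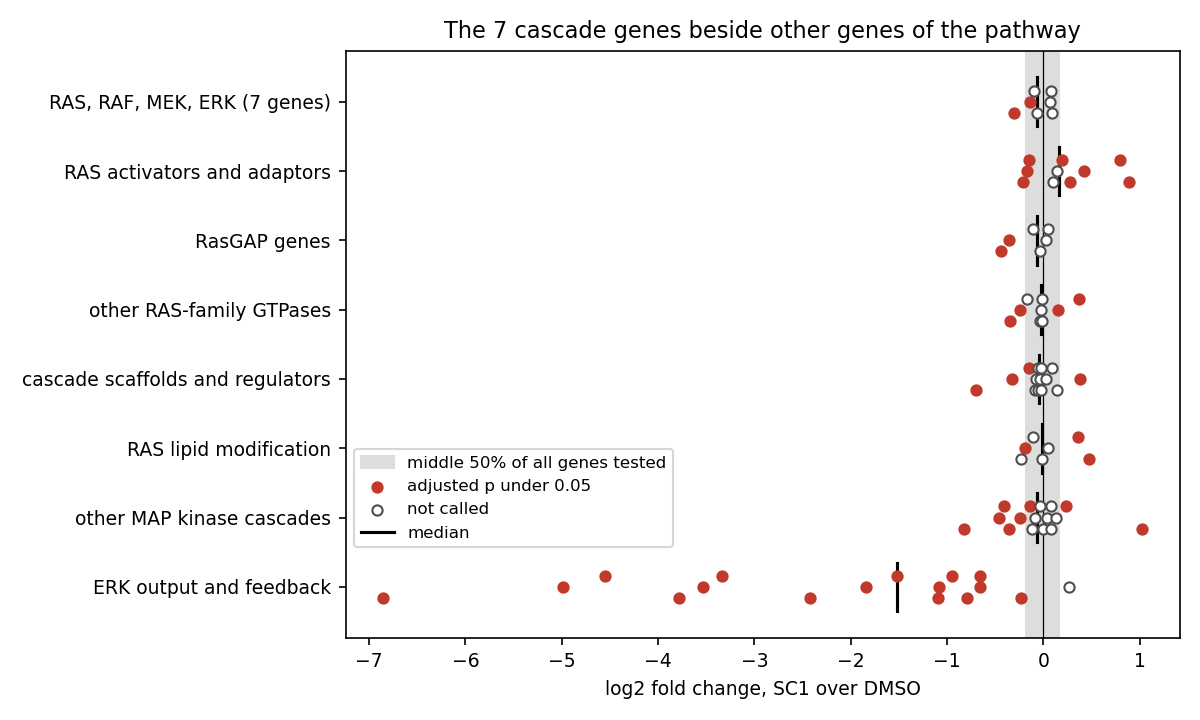
Log2 fold change of SC1 over DMSO (horizontal axis) for each tested gene of the cascade and of the pathway lists (rows); red points have an adjusted p under 0.05, black lines are medians, and the grey band holds the middle of all genes tested (-0.18 to 0.17). The fitted value of Spry4, the leftmost point, rests on SC1 arrays below background; the 7 cascade genes lie from -0.30 to 0.085.

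Among the genes with an official symbol, those whose log2 values over the 6 arrays followed each member most closely were found by Pearson's r. For Braf they were Srpk1 (r = 0.994), Uap1 (r = 0.991) and Rps6ka3 (r = 0.991). Rps6ka3 encodes RSK2, a kinase that ERK activates, and its log2 fold change was -0.17 (SE 0.0511, adjusted p = 0.0437). For Mapk3 they were 2610002M06Rik, Ifrd2 and Smim22 (r from 0.996 to 0.997), and 868 genes had an r over 0.95 with it. For Hras the nearest were Psmd10, Itfg1 and Zxdb (0.987 to 0.994), and for Nras Mtx2, Arhgap33os and Csnk2b (0.996 to 0.997). For Map2k1 they were Eif2b4, Gcm2 and Uhrf2 (0.979 to 0.983), for Map2k2 Mt4, Tnip2 and Rdh13 (0.996 to 0.998), and for Araf Ep400, Iws1 and Cplane1 (0.986 to 0.998). The points share their arrays and scaling and are only 6, so these values are a description. They depended on the processing: over 16 alternatives r fell as low as 0.11 for Hras and Zxdb, 0.099 for Nras and Arhgap33os, 0.13 for Map2k1 and Uhrf2, 0.30 for Map2k2 and Tnip2, 0.47 for Braf and Rps6ka3, 0.63 for Mapk3 and 2610002M06Rik, and -0.38 for Araf and Cplane1.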

How the data were processed

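Total RNA of 3 SC1 and 3 DMSO samples was measured on 6 arrays. Agilent Feature Extraction 10.7 read the spots, per the submitters' processing notes, and per the file headers the protocol was for 1 colour and the array design used mm9. The deposited intensity of each spot was corrected for background and spatial trend. A matrix of log2 values, also deposited, was made by a method that is not given in the sources used here. Its columns had medians of 5.18 to 5.19 and differed from quantile-normalized log2 signals by at most 0.153.

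From these, outlier spots were left out, log2 signals were averaged per probe, and the array's 75th percentile over probes was subtracted. Probes well above background on all 3 arrays of a group were kept (35289), with the brightest probe per gene. The contrast of SC1 to DMSO was fitted in limma 3.58.1 under R 4.3.3 (two-sided, Benjamini-Hochberg over 25422 genes, threshold 0.05); each further probe was read from a fit of all probes. Differences within an array were tested by exact permutation. The number of arrays limits the precision.

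The members and lists were chosen with earlier results of these data known. Named genes were all members, Rasa1, up to 3 called genes per list with the smallest p, and the 3 genes nearest each member by Pearson's r. Lamtor2 and Junb were named after their values were seen. In simulated data of 25422 genes, 200 of them changed, the fit recovered 11 of 50 changed 1.25-fold and 32 of 50 changed 1.5-fold. There were 9 false calls. Far more genes (9752) were called in the real data, which makes the adjusted threshold less strict there. The simulated counts therefore do not give the share of changes found in these data. Alternatives were other scalings, background corrections, filters, probe choices and variance models, blocks and left-out arrays.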

Additional observations from a re-analysis of the deposited data

How the results depend on the processing

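Of the 7 genes, the number called was 2 as reported and ran from 0 to 3 over 21 alternatives. It was 0 with spike-in scaling, without a filter, with the slide column as a block and at an adjusted p under 0.01. It was 1 with normexp and quantile, and with normexp and the 75th percentile, which was there taken over spots. It was also 1 with the 75th percentile over spots alone, an alternative added after the data were seen. With 1 array left out it was 0 to 1, and always lower; it was 3 with quantile normalization and in the deposited matrix, where Mapk3 no longer passed. Over all genes the count of 9752 became 5067 with spike-in scaling, 5542 with the slide column as a block and 5791 at an adjusted p under 0.01. The share of higher calls was most changed by normexp with the 75th percentile (7475 higher, 4811 lower). With the replicate number as a block 7914 genes and 1 of the 7 members (Braf) were called. The same-numbered arrays did not deviate together (correlations of -0.036 to -0.013, against -0.060 to 0.079 for other pairs). Such values cannot show whether same-numbered samples were handled together, so whether the numbers pair the samples is not known.

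Among the members' fold changes, only that of Araf turned: to -0.034 with the mean of its probes, and to -0.18 and -0.0099 on its other probes. With the mean of probes the r of Araf with Ep400, Iws1 and Cplane1 became -0.23, -0.064 and -0.38; the other pairs kept a positive r. The Hras to Nras shift turned to -0.0245 with normexp and quantile, to -0.030 with normexp and the 75th percentile, and ran from -0.017 to 0.073 with 1 array left out. The Map2k1 to Map2k2 shift turned to -0.010 with quantile normalization and in the deposited matrix, to -0.014 and -0.021 with normexp, to -0.0035 with the mean of probes, and ran from -0.038 to 0.043 with 1 array left out.

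Fgfr1, Rasa3, Rras, Rras2, Rit1, Iqgap1, Pea15a and Fnta lost their calls with spike-in scaling (adjusted p from 0.0559 for Rasa3 to 0.221 for Rras), with log2 fold changes of similar size (-0.40 for Rasa3, -0.28 for Rras and 0.32 for Fnta, against -0.36, -0.24 and 0.36), and Pea15a also with the slide column as a block (0.0797). None of these named genes changed direction under its 20 alternatives. The cause was not tested.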
